A study of Mus musculus with 12 samples.

Results

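The comparison set corneas of mice injured with benzalkonium chloride (BAK, a preservative of eye drops that damages the ocular surface) and given UCPRP drops against corneas injured in the same way, called Vehicle and labelled as untreated. Its members are the 6 libraries of these groups, 3 UCPRP and 3 Vehicle, of 12 libraries in the series, and all genes of the table were considered. The other libraries are 3 from injured corneas given UCS and 3 from uninjured, untreated Control corneas, and each library pooled 6 corneas from 3 mice. Per the labels' protocols each eye received 5 µl of 0.2% BAK daily for 14 days, and UCPRP was given as 5 µl of a 20% preparation 3 times daily for 10 days. The series title describes the treatments only as cord blood biologics, and the labels do not expand the abbreviations. The sources used here do not give the strain, age or sex of the mice, the time of harvest, the order of BAK and drops, or whether Vehicle corneas received a drop without UCPRP. Less injury and more repair therefore cannot be told apart in a difference between UCPRP and Vehicle.

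The cornea is a clear tissue with a stratified epithelium, a stroma kept by keratocytes, an inner endothelium and a dense supply of sensory nerves, and it normally holds few leukocytes and no vessels at its centre. Injury with BAK is known to bring neutrophils and monocytes, to strip mature epithelium and to harm the nerves. Platelet-rich preparations carry growth factors, and serum drops are used to aid healing of the ocular surface.

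RNA was measured by RNA sequencing of total RNA, as estimated counts per gene. Totals were 18.85 M to 19.18 M in UCPRP libraries and 19.03 M to 19.49 M in Vehicle libraries. A count of 3, the most that a count of 0 allows, was worth 0.147 to 0.178 counts per 1 M counts (CPM) over the 12 libraries. Pearson correlations of log2 CPM across genes ran from 0.96 to 0.972 between UCPRP libraries and from 0.964 to 0.974 between Vehicle libraries. Retina genes took 0.354% to 1.82% of counts in these libraries. The libraries thus held RNA of the retina beside the cornea, and lens genes took 0.0328% to 2.92%. Krt5, the keratin of basal epithelial cells, stood at 5820 to 8053 CPM in UCPRP and 5949 to 7101 CPM in Vehicle, whereas Krt12, the defining keratin of corneal epithelium, was far below its Control level in both groups.

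No gene passed the test. Of 19702 genes 16124 were tested with edgeR's quasi-likelihood test, 0 were higher and 0 were lower in UCPRP at an adjusted p under 0.05 (0% of genes tested), and the smallest adjusted p was 0.331. At an unadjusted p under 0.05 there were 518 genes with the higher mean in UCPRP (3.21%) and 1054 with the lower one (6.54%), together 9.75%, where 806 genes would fall there if p values were uniform. These counts were 208 and 524 without Vehicle replicate 1, 281 and 867 without Vehicle replicate 2, 916 and 1541 without Vehicle replicate 3, and 478 and 622 without UCPRP replicate 2. DESeq2 called 5 genes higher and 140 lower (0.0261% and 0.73% of the genes it fitted), and limma-voom called 0. Leaving out Vehicle replicate 3 gave 19 higher and 176 lower (0.117% and 1.08%) by edgeR, and 92 genes were shared with the DESeq2 calls, 63.4% of the DESeq2 list and 47.2% of the other. All p values measure the spread between pools of corneas, which the labels do not tie to separate litters or days.

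The estimates still bound the response of most genes. The fit gave each gene a 95% interval of its log2 fold change, UCPRP over Vehicle, taken gene by gene and not adjusted for their number. For 12287 genes (76.2% of those tested) both ends lay inside a 2-fold change, and for 8662 genes (53.7%) inside a 1.5-fold change. The median standard error was 0.17 and the median log2 fold change of all genes was 0.03, with the middle 50% of genes between -0.13 and 0.18. In all, 603 genes (3.74%) had an estimate of 2-fold or more in either direction. Precision rose with the level up to 100 CPM. The median standard error was 0.139 at 10 to 100 CPM and 0.152 over 100 CPM. In each of these bins 70.7% of genes had intervals inside 1.5-fold. Of 2101 genes over 100 CPM 92% had intervals inside 2-fold, of 9189 genes at 10 to 100 CPM 89.6%, of 3930 genes at 1 to 10 CPM 52.3%, and of 904 genes under 1 CPM 7.08%. A response of 2-fold was thus outside the interval of most genes over 10 CPM whereas the interval of most genes under 1 CPM reached beyond it.

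**Figure D1:**
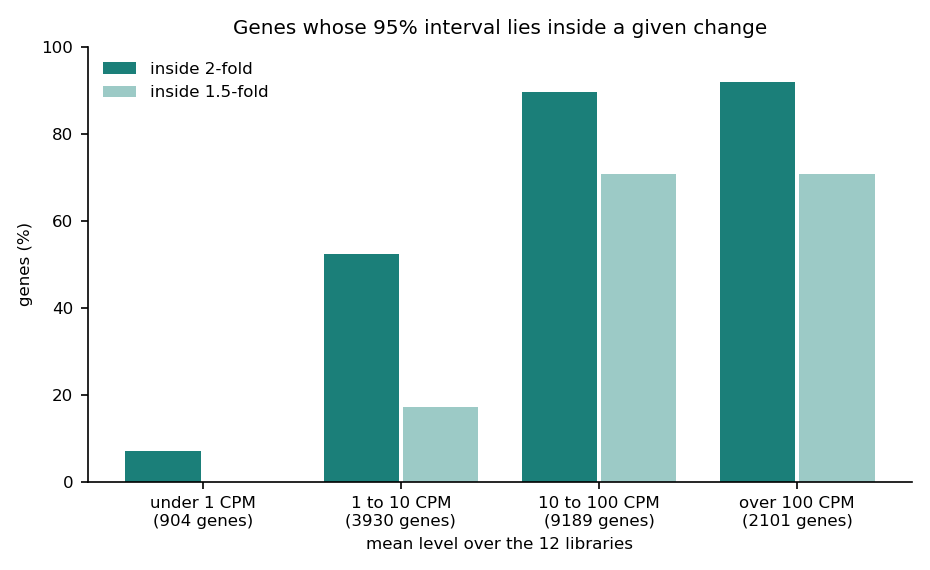
Share of genes (%) whose 95% interval of the UCPRP over Vehicle fold change lies inside a 2-fold change (dark bars) or a 1.5-fold change (light bars), by mean level over the 12 libraries. The dark bars stand at 7.08% under 1 CPM and at 92% over 100 CPM.

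Genes in which the 3 UCPRP libraries and the 3 Vehicle libraries did not overlap were looked at next. UCPRP lay wholly above Vehicle in 1077 genes (6.68%) and wholly below it in 1150 (7.13%). The 8 with the smallest p in each direction at a mean of at least 5 CPM had adjusted p values of 0.331 to 0.342 by edgeR. Those lower in UCPRP were Pecam1, Muc5b, Tgfb3, Cx3cr1, Tes, Slfn5, Lrrc17 and Nlrp3, and those higher were Nrg2, Qpct, Hmx1, Spry2, Iqcb1, Lifr, Lrtm2 and Cx3cl1. Lack of overlap was a condition of this choice and is no further result for these genes. Their intervals are not adjusted for the choice. It also favours genes with outlying Vehicle libraries, so the place of Vehicle relative to Control in them is not independent of it. Ccl12, Tgfbr2, Aldh1a1, Trp63, Mmp3, Rsad2, Cxcr2, Socs3, Pf4, Ccnd1, Sema4c, Trpv2, Gsdma and Hmox1, described below, each had the smallest p of a list. That choice favours lack of overlap and intervals off 0 as well, so neither is a further result for them.

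Pecam1 (Entrez 18613), the adhesion protein CD31 of endothelial cells, platelets and many leukocytes, lies on chromosome 11 from 106654213 to 106715281 (GRCm38.p6, RefSeq). It measured 15.9, 13.7 and 16.9 CPM in UCPRP libraries 1 to 3, against 30.7, 27.5 and 25.5 CPM in the Vehicle libraries and 13.2, 10.7 and 15.7 CPM in Control. The UCPRP values lay close to the Control values, and all Vehicle values were higher, an order that the choice of this gene favours. The log2 fold change was -0.85 (SE 0.15, interval -1.17 to -0.52, adjusted p = 0.331 by edgeR), and over the 18 alternatives it stayed between -0.91 and -0.67, with adjusted p between 0.000638 and 1. Pecam1 was chosen by the same contrast, so a DESeq2 call of it is no further result. It was the only member of 21 tested vessel genes that DESeq2 called lower (0.73% of all genes it fitted). That list had 17 members with the lower mean in UCPRP, 3 of them without overlap (7.13% of all genes lay wholly below Vehicle), and a median log2 fold change of -0.28.

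Cx3cr1, the fractalkine receptor of monocytes and resident macrophages, measured 10.8, 9.499 and 9.562 CPM in UCPRP, against 15.7, 14.2 and 16.3 CPM in Vehicle (log2 fold change -0.63, interval -0.90 to -0.36). Its ligand Cx3cl1 measured 58.3, 60.8 and 70.2 CPM in UCPRP, against 44.03, 47.9 and 52.6 CPM in Vehicle (0.39, interval 0.16 to 0.62). Receptor and ligand lay on opposite sides, and lack of overlap was a condition of choosing each. Tgfb3, a secreted TGF-beta, was even within groups, at 30.1, 34.3 and 29.7 CPM in UCPRP against 44.2, 44.5 and 47.3 CPM in Vehicle (-0.53, interval -0.75 to -0.31). Tgfbr2, the receptor that binds such ligands, measured 96.7, 96.0 and 97.3 CPM in UCPRP, against 146, 113 and 128 CPM in Vehicle (-0.42, interval -0.65 to -0.19). UCPRP was the lower group in every library for both genes, which for Tgfb3 was a condition of its choice. Tgfbr2 was chosen as the smallest p of its list, which favours such an order. Both intervals lay inside 2-fold.

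Among the higher genes Nrg2, a neuregulin ligand of ErbB receptors, measured 17.8, 11.7 and 16.3 CPM in UCPRP, against 5.32, 6.84 and 9.19 CPM in Vehicle and 16.8, 13.1 and 13.3 CPM in Control. Its log2 fold change was 1.10 (SE 0.22, interval 0.62 to 1.58, adjusted p = 0.331 by edgeR; 0.00548 to 1 over the alternatives). Qpct, the glutaminyl cyclase that modifies peptide ends, measured 31.6, 35.9 and 36.3 CPM in UCPRP, against 16.1, 21.3 and 24.4 CPM in Vehicle and 32.0, 33.7 and 30.6 CPM in Control (0.75, interval 0.41 to 1.09). In both genes the UCPRP values lay about the Control values and the Vehicle values lay below both. The choice of these genes by UCPRP against Vehicle favours such an order, so it is not read as a return to Control. Lrrc17, chosen in the same way, had UCPRP below both other groups. Lifr, the receptor of leukaemia inhibitory factor, averaged 91.3 CPM in UCPRP and 57.9 CPM in Vehicle (0.66, interval 0.29 to 1.02), and Hmx1, a homeobox factor of the developing eye, averaged 28.6 CPM in UCPRP and 15.8 CPM in Vehicle (0.85, interval 0.41 to 1.30). Nrg2, Qpct, Hmx1 and Lrtm2 were among the 5 genes that DESeq2 called higher.

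**Figure D2:**
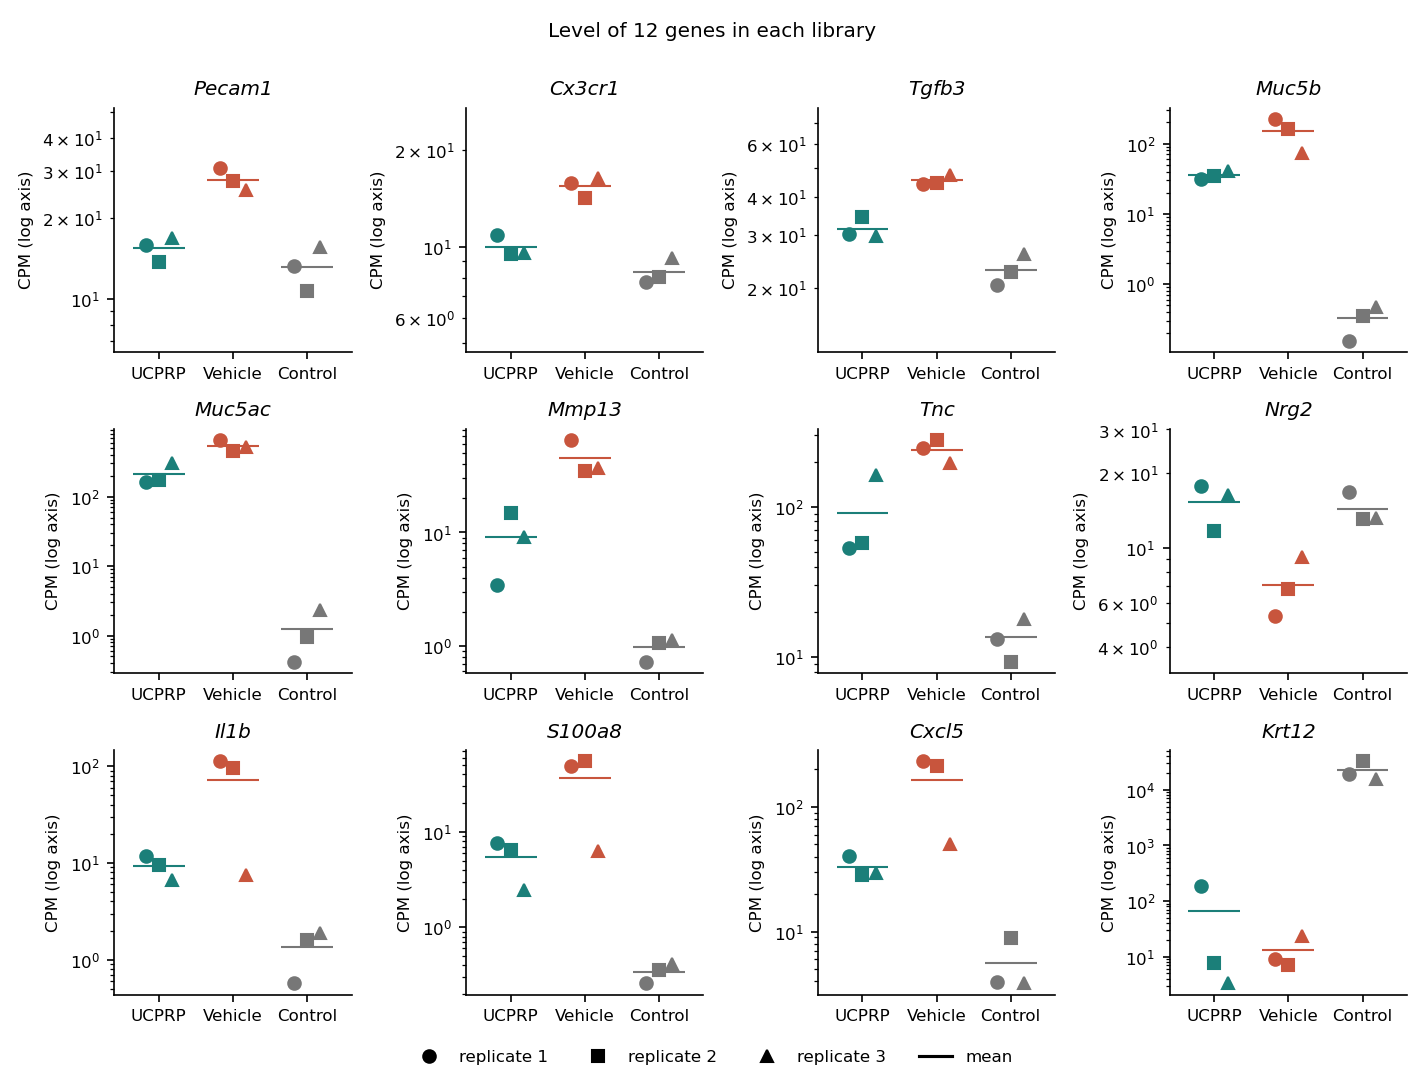
Level (CPM, log axis) of 12 genes in each UCPRP, Vehicle and Control library, with replicates as circles, squares and triangles and group means as lines. The first 8 genes do not overlap between UCPRP and Vehicle, Cxcl5 does not either, and in Il1b and S100a8 Vehicle replicate 3 lies among or near the UCPRP libraries.

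Several mucins and a lectin of the ocular surface were lower in every UCPRP library. Mucins hold the tear film, and goblet cells belong to the conjunctiva beside the cornea. Muc5ac, the main gel-forming mucin of goblet cells, measured 163, 174 and 304 CPM in UCPRP, against 655, 457 and 519 CPM in Vehicle, while Control libraries held 0.412 to 2.33 CPM. Every UCPRP library was below every Vehicle library and far above Control. The log2 fold change was -1.35 (SE 0.40, interval -2.22 to -0.47, adjusted p = 0.359 by edgeR). Muc5b, another gel-forming mucin, measured 31.8, 34.9 and 40.9 CPM in UCPRP, against 226, 161 and 73.4 CPM in Vehicle (-2.09, SE 0.39, interval -2.95 to -1.24). Reg3g, an antimicrobial lectin, measured 0.160, 0.976 and 1.85 CPM in UCPRP, against 11.6, 16.1 and 5.97 CPM in Vehicle (-3.48, interval -5.31 to -1.65), and Muc16, a membrane mucin, 2.51, 3.08 and 3.70 CPM in UCPRP, against 7.43, 4.30 and 7.30 CPM in Vehicle (-1.03, interval -1.70 to -0.36). All 3 genes were lower in every UCPRP library. In Control Muc5b measured 0.1545 to 0.466 CPM, Reg3g 0 to 0.1186 CPM and Muc16 0 CPM. These transcripts were thus all but absent from uninjured corneas, and their UCPRP means lay between Control and Vehicle.

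The wider goblet and conjunctiva list did not move as 1 block. Of its 15 tested genes 10 had the lower mean in UCPRP, 6 without overlap (7.13% of all genes lay wholly below Vehicle), and 5 the higher mean, with a median of -0.39. Krt13, a keratin of the conjunctival surface, measured 10220, 10040 and 7706 CPM in UCPRP, against 10620, 7287 and 9916 CPM in Vehicle (0.01, interval -0.60 to 0.61), with 1911 to 4126 CPM in Control. Its groups overlapped throughout. The summed level of the list, in which Krt13 weighs heavily, averaged 17190 ± 2340 CPM in UCPRP and 17240 ± 3340 CPM in Vehicle (exact two-sided permutation p = 0.9). In RNA of whole tissue, fewer cells of a type and less RNA per cell cannot be told apart.

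Transcripts of the mature corneal epithelium stayed low in both injured groups. Krt12 measured 186, 7.55 and 3.29 CPM in UCPRP, against 9.19, 7.18 and 23.9 CPM in Vehicle and 18900, 32870 and 15900 CPM in Control. The estimate of 2.28 (interval -0.35 to 4.92, adjusted p = 0.566 by edgeR) rested on UCPRP replicate 1, without which it was -1.31. Slurp1, a secreted Ly6-type protein of surface epithelium, followed the same library, at 6.03, 0.0513 and 0 CPM in UCPRP against 0.516, 0.244 and 1.07 CPM in Vehicle, and its estimate of 1.71 (interval -0.99 to 4.42) was -4.25 without it. Against Control, Krt12 in UCPRP was lower by a log2 fold change of -8.43 (adjusted p = 0.00592) and Slurp1 by -9.55 (adjusted p = 0.00084), both by edgeR. The deficit of these transcripts thus remained under UCPRP, and the lone higher library was 1 pool.

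Both epithelial aldehyde dehydrogenases named here had higher UCPRP means. Aldh3a1, the abundant aldehyde dehydrogenase of corneal epithelium, measured 2172, 2036 and 1409 CPM in UCPRP, against 916, 654 and 1487 CPM in Vehicle and 6644 to 17380 CPM in Control (0.88, interval -0.03 to 1.79). Aldh1a1, a relative shared by epithelium and keratocytes, measured 201, 109 and 241 CPM in UCPRP, against 78.0, 101 and 104 CPM in Vehicle and 248 to 280 CPM in Control (0.96, interval 0.35 to 1.58, adjusted p = 0.359 by edgeR). Aldh1a1 did not overlap and Aldh3a1 did. Pax6, the eye master regulator, measured 453.5 to 527.9 CPM in UCPRP and 380.6 to 445.3 CPM in Vehicle (0.19, interval -0.09 to 0.46), which places a 1.5-fold change outside its interval. Krt14, a basal keratin, was lower in every UCPRP library, at 2793 to 3230 CPM in UCPRP and 3642 to 5808 CPM in Vehicle (-0.64, interval -1.22 to -0.06), as was Trp63, the p63 factor of basal and limbal cells, at 88.6 to 99.6 CPM and 101 to 183 CPM (-0.61, interval -0.99 to -0.22). In Control Krt14 measured 495.5 to 867 CPM and Trp63 140.9 to 166.1 CPM. In the libraries of high Dbp described below the estimates were -0.26 for Krt14 and -0.12 for Trp63. A list of 24 tested genes of corneal epithelium also held the basal keratins Krt5 and Krt14. Of these genes 15 had the higher and 9 the lower mean, with a median of 0.07. Without overlap were 3 above and 4 below Vehicle (6.68% and 7.13% of all genes). Over 24 junction genes the median was -0.03 and 21 intervals lay inside 2-fold (76.2% of all genes).

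**Figure D3:**
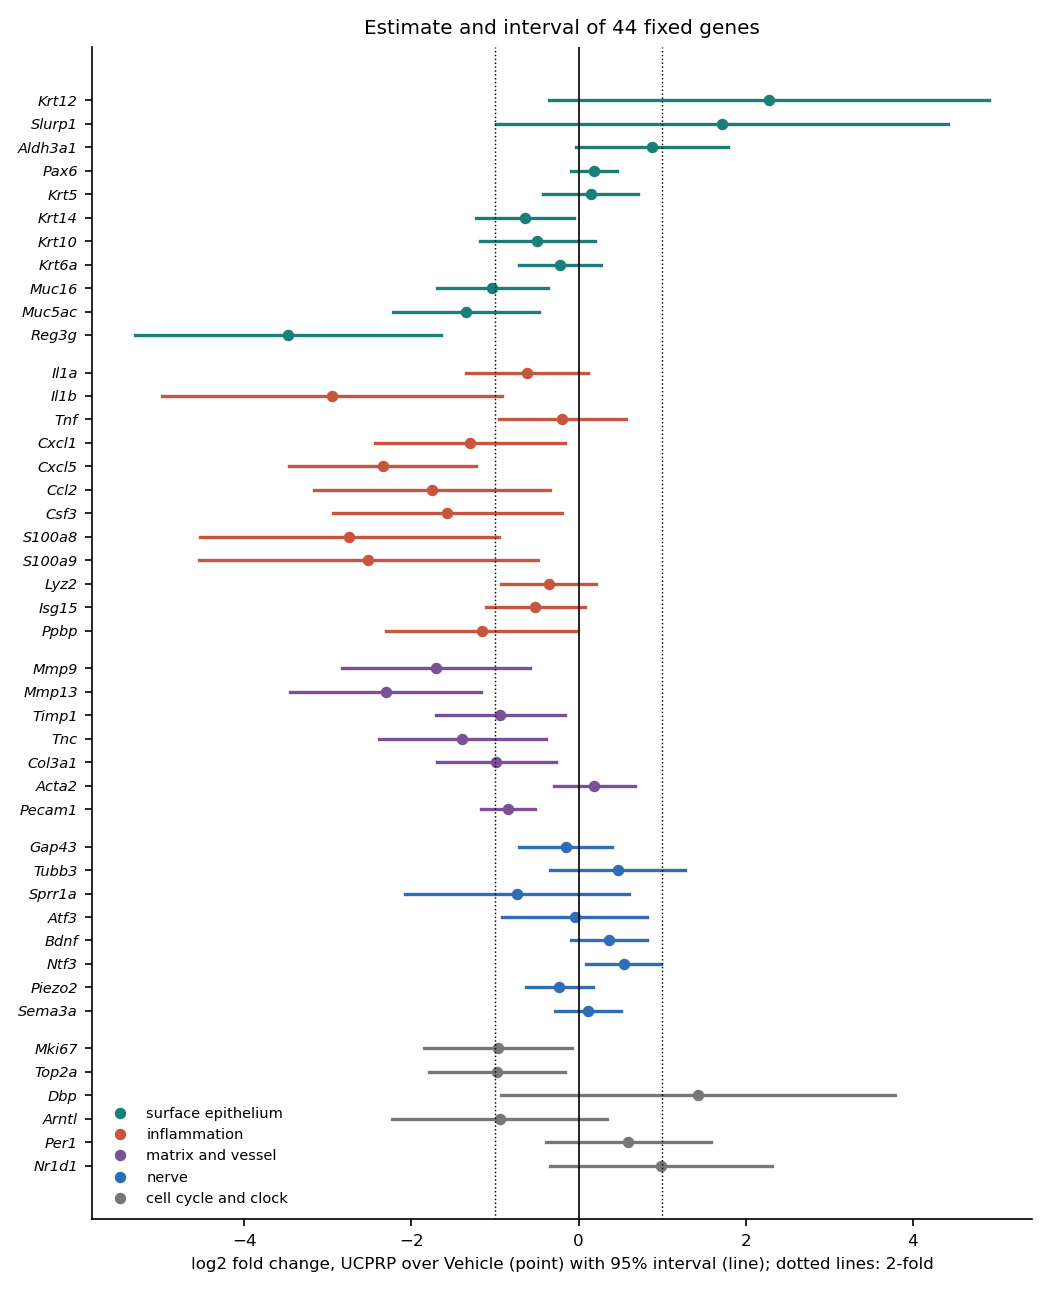
Log2 fold change of UCPRP over Vehicle (points) with its 95% interval (lines) for 44 fixed genes, by role; dotted lines mark a 2-fold change. Of these intervals 23 hold 0, 20 lie below 0 and 1, that of Ntf3, lies above it, and 12 lie inside 2-fold. The fixed genes are a chosen set, so these counts do not describe all genes. Over all 16124 genes tested 1054 intervals lie below 0, 518 lie above it and 12287 lie inside 2-fold.

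Inflammatory transcripts had wide gaps between the group means, and several of these gaps rested on a pair of Vehicle libraries. Il1b, the cytokine interleukin 1 beta, measured 11.9, 9.45 and 6.68 CPM in UCPRP, against 113, 97.2 and 7.56 CPM in Vehicle and 0.566 to 1.86 CPM in Control. Vehicle replicates 1 and 2 were high, and Vehicle replicate 3 lay inside the UCPRP range. The log2 fold change was -2.96 (SE 0.92, interval -4.99 to -0.92, adjusted p = 0.359 by edgeR), -3.49 without Vehicle replicate 3, and 0.31 when Vehicle replicate 3 alone stood for Vehicle among the libraries of high Dbp described below. S100a8, a calprotectin subunit of neutrophils and stressed epithelium, measured 7.58, 6.42 and 2.47 CPM in UCPRP, against 48.8, 55.2 and 6.33 CPM in Vehicle (-2.75, interval -4.53 to -0.96). Its partner S100a9 measured 33.5, 17.8 and 14.8 CPM in UCPRP, against 172, 175 and 31.6 CPM in Vehicle (-2.52, interval -4.55 to -0.49). Both had Vehicle replicate 3 within the UCPRP range.

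Receptors and signalling genes of the same response repeated that split. Cxcr2, the neutrophil chemokine receptor, measured 11.3, 6.98 and 5.81 CPM in UCPRP, against 50.7, 49.3 and 11.1 CPM in Vehicle (-2.20, interval -3.27 to -1.13). Socs3, the feedback inhibitor of cytokine signalling, measured 23.5, 15.1 and 18.4 CPM in UCPRP, against 99.9, 86.8 and 22.3 CPM in Vehicle (-1.88, interval -2.86 to -0.90). Il6, the cytokine interleukin 6, was too low to test, with 1 count in the UCPRP libraries together and 38 in the Vehicle libraries, a ratio of 0.0271 (95% interval 0.000669 to 0.16, counting error only), and none of the 38 came from Vehicle replicate 3. In all 3 genes Vehicle replicate 3 was the lowest Vehicle library. Tnf, tumour necrosis factor, overlapped fully, at 15.6, 19.2 and 9.20 CPM in UCPRP against 23.8, 16.3 and 10.3 CPM in Vehicle (-0.20, interval -0.96 to 0.56), so a 2-fold change lay outside its interval.

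Other mediators were lower in all 3 UCPRP libraries. Cxcl5, a chemokine that draws neutrophils, measured 40.1, 28.3 and 29.6 CPM in UCPRP, against 233, 214 and 50.8 CPM in Vehicle (-2.35, interval -3.46 to -1.23). Nlrp3, the inflammasome sensor, measured 1.49, 1.18 and 1.18 CPM in UCPRP, against 16.7, 10.7 and 2.25 CPM in Vehicle (-2.93, interval -4.29 to -1.58). Ltf, lactoferrin, measured 210, 295 and 395 CPM in UCPRP, against 968, 840 and 682 CPM in Vehicle (-1.47, interval -2.52 to -0.41). These genes kept the groups apart, though Vehicle replicate 3 was again the lowest Vehicle library. Ccl12, a monocyte chemokine, had its lowest Vehicle value there too but was more even within the group: it measured 1.17, 0.924 and 1.49 CPM in UCPRP, against 3.92, 4.05 and 3.42 CPM in Vehicle (-1.66, interval -2.26 to -1.06, adjusted p = 0.331 by edgeR).

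By list, 28 of 29 tested cytokine genes had the lower mean in UCPRP (6 without overlap, median -0.79), 25 of 29 chemokine genes (10 without overlap, median -1.20), and 11 of 12 neutrophil genes (5 without overlap, median -2.30). For all genes tested the median was 0.03, and 7.13% of genes lay wholly below Vehicle. DESeq2 called 4 cytokine, 10 chemokine and 5 neutrophil genes lower, against 0.73% of all genes it fitted. The summed level of the neutrophil list was 363, 409 and 498 CPM in UCPRP, against 1599, 1451 and 849.8 CPM in Vehicle and 49.0 to 151 CPM in Control (exact two-sided permutation p = 0.1, the smallest that 3 against 3 libraries allow). Each UCPRP sum was lower than each Vehicle sum. Ltf made up most of it and is also made by glandular epithelium. Among 26 tested macrophage and monocyte genes 24 had the lower mean, 17 of them without overlap, with a median of -0.47, yet the summed level overlapped, at 2916 to 3307 CPM in UCPRP and 3026 to 4079 CPM in Vehicle. Gpnmb, the most abundant gene of that list and one also made by pigment cells, averaged 1533 CPM in UCPRP and 1509 CPM in Vehicle (0.02, interval -0.46 to 0.50).

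Interferon and complement genes lay slightly lower. Of 22 tested interferon-stimulated genes 21 had the lower mean in UCPRP, 8 without overlap (7.13% of all genes lay wholly below Vehicle), and the median was -0.49. Rsad2, the antiviral protein viperin, measured 5.01, 4.16 and 5.603 CPM in UCPRP, against 22.4, 11.2 and 10.7 CPM in Vehicle and 13.9 to 49.3 CPM in Control (-1.58, interval -2.51 to -0.66, adjusted p = 0.337 by edgeR). Both injured groups stood below Control in this list: edgeR called 17 of the 22 genes lower in UCPRP than in Control (5.07% of all genes lower and 5.3% higher) and 12 of 22 lower in Vehicle than in Control (6.92% lower and 9.58% higher). The difference between these counts was not tested. Isg15, an interferon-induced ubiquitin-like protein, was among them, at 23.4 to 45.03 CPM in UCPRP, 42.8 to 57.0 CPM in Vehicle and 92.3 to 179 CPM in Control (UCPRP over Control -1.87, adjusted p = 0.00181). Of 16 complement genes 12 had the lower mean, with a median of -0.34 and 12 intervals inside 2-fold.

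**Figure D4:**
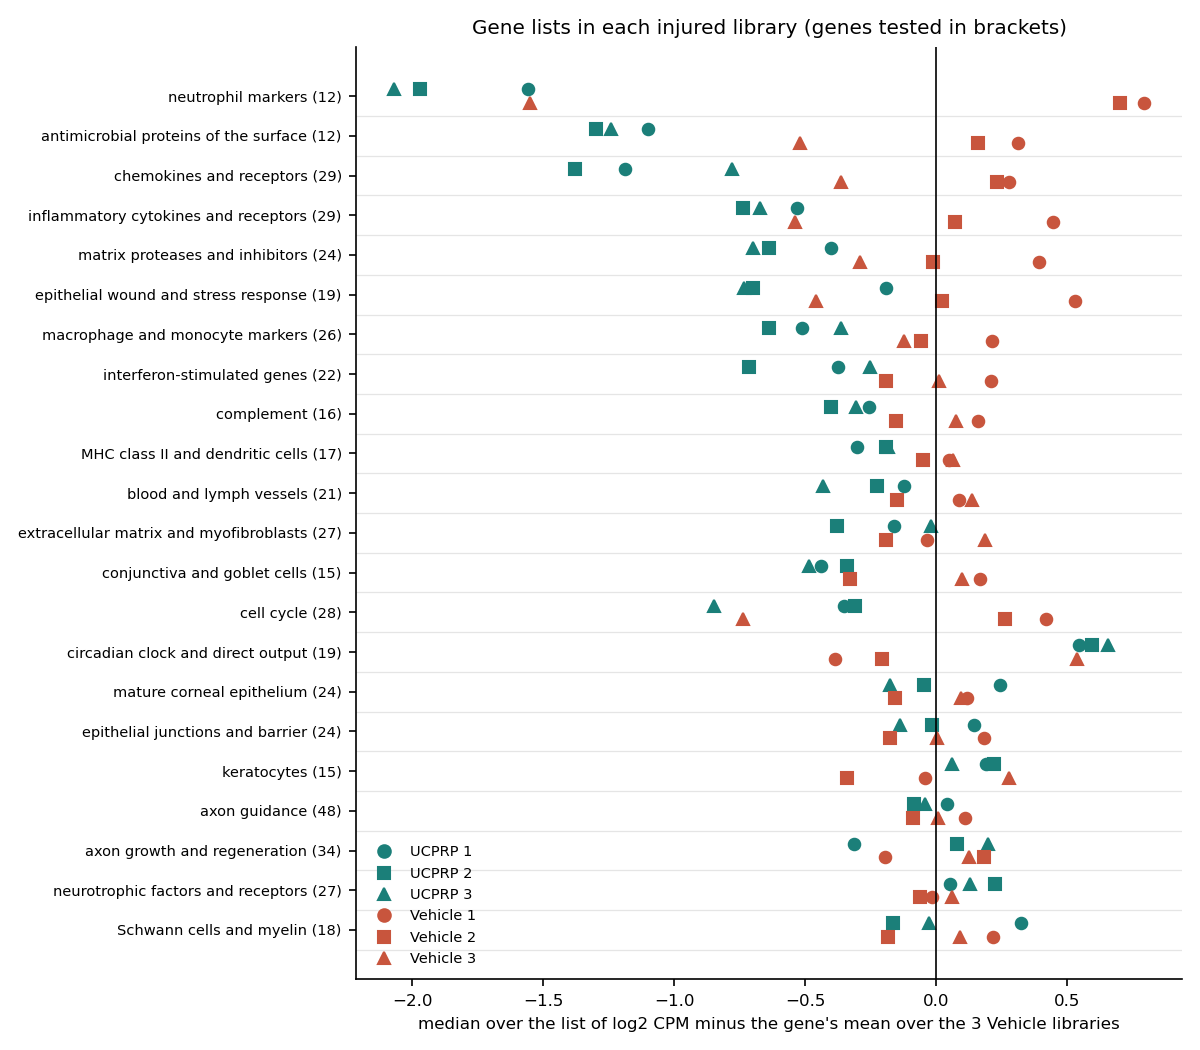
Median over each gene list of log2 CPM minus the mean of the gene over the 3 Vehicle libraries, for each UCPRP library (upper row of each pair) and each Vehicle library (lower row). In the neutrophil, cytokine and cell cycle lists Vehicle replicate 3 stands near the UCPRP libraries, and in the axon guidance and Schwann cell lists the groups overlap.

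Proteases of wound healing had lower means in UCPRP. Mmp13, a collagenase, measured 3.47, 14.8 and 9.10 CPM in UCPRP, against 65.2, 34.4 and 36.6 CPM in Vehicle and 0.721 to 1.14 CPM in Control (-2.31, SE 0.52, interval -3.46 to -1.17, adjusted p = 0.331 by edgeR). Mmp3, stromelysin, measured 116, 172 and 87.5 CPM in UCPRP, against 436, 341 and 207 CPM in Vehicle (-1.39, interval -2.05 to -0.72), and Mmp9, a gelatinase of epithelium and neutrophils, 8.48, 14.4 and 10.9 CPM in UCPRP, against 43.5, 50.6 and 15.8 CPM in Vehicle (-1.70, interval -2.83 to -0.58). None of the 3 overlapped. Their inhibitor Timp1 was lower as well, at 25.6 to 32.2 CPM in UCPRP and 35.7 to 71.3 CPM in Vehicle (-0.94, interval -1.71 to -0.16). Of 24 tested protease and inhibitor genes 22 had the lower mean, 9 without overlap (7.13% of all genes lay wholly below Vehicle), with a median of -0.72.

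Tnc, tenascin C of provisional matrix, measured 53.2, 57.8 and 164 CPM in UCPRP, against 245, 279 and 197 CPM in Vehicle and 9.25 to 18.1 CPM in Control (-1.39, interval -2.39 to -0.39; -2.11 without UCPRP replicate 3). Col3a1, the collagen of early scars, measured 219, 402 and 431 CPM in UCPRP, against 596, 702 and 787 CPM in Vehicle (-0.99, interval -1.70 to -0.27). Both stayed apart, with Vehicle replicate 3 the highest Vehicle library for Col3a1. Acta2, smooth muscle actin of myofibroblasts and pericytes, overlapped, at 515 to 771.5 CPM in UCPRP and 435 to 660 CPM in Vehicle (0.19, interval -0.30 to 0.67). Over 27 tested matrix genes 17 had the lower mean, 8 without overlap (7.13% of all genes lay wholly below Vehicle), and the median was -0.15. Lrrc17, a secreted leucine-rich repeat protein, was below both other groups, at 11.6, 11.9 and 14.2 CPM in UCPRP, against 19.4, 29.2 and 28.7 CPM in Vehicle and 17.4 to 27.1 CPM in Control (-1.04, interval -1.51 to -0.57). Among ligands and receptors of growth factors that platelets carry 24 of 27 intervals lay inside 2-fold, with a median of -0.05. The share was 76.2% over all genes and 89.6% over genes at 10 to 100 CPM.

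Platelet genes formed a further list, since platelets reach injured tissue with blood. Ppbp, the platelet chemokine CXCL7, measured 175, 409 and 99.1 CPM in UCPRP, against 613, 575 and 337 CPM in Vehicle and 0.464 to 3.11 CPM in Control (-1.16, interval -2.30 to -0.02). Pf4, platelet factor 4, measured 10.6, 8.88 and 9.77 CPM in UCPRP, against 18.5, 17.3 and 14.1 CPM in Vehicle (-0.77, interval -1.33 to -0.21). Both had the lower mean in UCPRP, and Ppbp overlapped between the groups whereas Pf4 did not. Of 9 tested platelet genes 4 had the higher and 5 the lower mean, with a median of -0.395. In 3 of them UCPRP lay wholly below Vehicle, against 7.13% of all genes. Red blood cell genes took 0.00987% to 0.0189% of counts in UCPRP and 0.0106% to 0.0203% in Vehicle.

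Most nerve genes measured here overlapped between the groups, as did most genes of any kind (13.8% of all genes tested did not). Gap43, the growth cone protein of regenerating axons, measured 6.99, 11.7 and 10.9 CPM in UCPRP, against 8.72, 12.4 and 11.8 CPM in Vehicle (-0.15, interval -0.71 to 0.41, adjusted p = 0.864 by edgeR). Piezo2, the touch channel, measured 14.3, 9.60 and 15.9 CPM in UCPRP, against 14.7, 15.9 and 16.1 CPM in Vehicle and 41.9 to 58.6 CPM in Control (-0.23, interval -0.63 to 0.18). A 2-fold change lay outside both intervals, and for Piezo2 both injured groups stood below Control (UCPRP over Control -1.94, adjusted p = 0.000174 by edgeR). Sema3a, a repellent of axons, had 0.11 (interval -0.28 to 0.51), and Bdnf, brain-derived neurotrophic factor, 0.37 (interval -0.09 to 0.83), with every UCPRP library of Bdnf (4.36 to 5.40 CPM) above every Vehicle library (3.25 to 4.298 CPM). Tubb3, the neuronal tubulin, was bounded less closely (0.47, interval -0.34 to 1.28), and it is also a gene of retinal neurons, whose RNA the libraries held.

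Ntf3, neurotrophin 3, was the fixed gene whose interval lay above 0. It measured 11.8, 8.68 and 8.17 CPM in UCPRP, against 6.56, 5.37 and 7.81 CPM in Vehicle and 16.3 to 20.2 CPM in Control (0.54, interval 0.09 to 0.99, adjusted p = 0.453 by edgeR). The nearest UCPRP and Vehicle libraries were close together. Sema4c, a transmembrane semaphorin, was lower in every UCPRP library, at 16.9, 18.2 and 18.9 CPM in UCPRP against 32.6, 25.4 and 21.7 CPM in Vehicle (-0.56, interval -0.88 to -0.25, adjusted p = 0.331 by edgeR, and 0.0411 without Vehicle replicate 3, within a range of 0.0411 to 1 over the alternatives). Trpv2, a cation channel of sensory neurons and immune cells, was lower in every library as well, at 6.31 to 7.58 CPM in UCPRP and 8.17 to 11.8 CPM in Vehicle (-0.55, interval -0.92 to -0.19). Sema4c and Trpv2 were chosen as the smallest p of their lists, which favours such separation, so it is no further result for them. Trpv2 belongs to a list of 12 tested sensory genes and channels, of which 8 had the higher and 4 the lower mean. Its median was 0.275, and 5 of its intervals lay inside 2-fold. Of 48 tested axon guidance genes 44 had intervals inside 2-fold (76.2% of all genes), 20 had the higher and 28 the lower mean, and the median was -0.04. Of 34 axon growth genes 20 had such intervals (median 0.04), of 27 neurotrophic genes 17 (median 0.16) and of 18 Schwann cell genes 13 (median 0.03). In 4 neurotrophic genes UCPRP lay wholly above Vehicle (6.68% of all genes) and in 0 wholly below. UCPRP lay wholly below Vehicle in 4 axon guidance and 3 axon growth genes (7.13% of all genes). Most axons in the cornea have their cell bodies elsewhere, so these libraries hold little of the RNA of those neurons.

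Within the UCPRP and Vehicle libraries, clock genes moved with several of these results. The circadian clock is a loop in which CLOCK and BMAL1 (gene Arntl) drive Per, Cry, Nr1d1 and the output genes Dbp, Tef and Hlf, often through the E-box CACGTG, and its phase follows the hour of the day. Dbp measured 212, 198 and 141 CPM in UCPRP, against 14.7, 25.9 and 164 CPM in Vehicle and 238, 280 and 21.9 CPM in Control. Arntl measured 9.12, 21.7 and 24.4 CPM in UCPRP, against 39.1, 47.7 and 19.4 CPM in Vehicle and 23.6, 17.1 and 66.4 CPM in Control. Vehicle replicates 1 and 2 thus had low Dbp and high Arntl, and Vehicle replicate 3 had the levels of the UCPRP libraries. The index log2 Dbp minus log2 Arntl averaged 3.42 ± 1.02 in UCPRP and 0.26 ± 2.45 in Vehicle (SD, n = 3 each; exact two-sided permutation p = 0.2).

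Tef, an output factor, measured 382, 331 and 319 CPM in UCPRP, against 88.6, 104 and 307 CPM in Vehicle (1.05, interval -0.12 to 2.22), and Per1, a repressor of the loop, 106, 85.7 and 98.6 CPM in UCPRP, against 37.9, 42.3 and 112 CPM in Vehicle (0.60, interval -0.39 to 1.58). Over 19 tested clock genes the median was 0.55. In RefSeq promoter windows of 300 bases (GRCm38.p6, 250 before the start site to 50 after it), CACGTG, which is its own reverse complement and so was read once for both strands, occurred in 5 of the 16 clock genes with an entry and in 8.09% of all 27025 genes with one (7.15% of 32851 windows). A match is a description of the sequence only, and binding was not measured. The windows of Per1 (chr11:69098699-69098998, plus strand) and Tef (chr15:81802423-81802722 and chr15:81811164-81811463, plus strand) are shown with the motif in capitals, as windows that hold it in genes described here. The other Per1 window and those of Dbp, Nr1d1 and Arntl hold no CACGTG, although these genes too set Vehicle replicate 3 apart from replicates 1 and 2.
Per1: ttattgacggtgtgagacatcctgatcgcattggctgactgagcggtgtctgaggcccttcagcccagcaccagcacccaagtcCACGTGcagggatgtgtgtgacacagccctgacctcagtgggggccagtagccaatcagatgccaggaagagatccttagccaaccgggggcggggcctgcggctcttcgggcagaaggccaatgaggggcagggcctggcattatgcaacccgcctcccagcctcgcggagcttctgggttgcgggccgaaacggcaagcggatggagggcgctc
Tef, first window: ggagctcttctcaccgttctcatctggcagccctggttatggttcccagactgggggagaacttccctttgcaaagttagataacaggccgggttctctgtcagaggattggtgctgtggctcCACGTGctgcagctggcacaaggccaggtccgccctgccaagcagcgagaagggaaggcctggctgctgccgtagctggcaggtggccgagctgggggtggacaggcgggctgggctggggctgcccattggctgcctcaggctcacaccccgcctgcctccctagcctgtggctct
Tef, second window: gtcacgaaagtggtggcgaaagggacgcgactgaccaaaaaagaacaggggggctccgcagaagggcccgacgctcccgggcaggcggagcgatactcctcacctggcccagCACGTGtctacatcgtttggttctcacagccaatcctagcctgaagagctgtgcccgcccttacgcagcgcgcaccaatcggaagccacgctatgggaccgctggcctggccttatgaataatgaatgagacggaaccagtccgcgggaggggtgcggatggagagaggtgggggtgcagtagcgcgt

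The lists differed in what was left when the Vehicle library of like clock phase stood alone. Restricted to the 8 libraries with Dbp of at least 100 CPM, a choice made after seeing the data in which Vehicle is 1 library assumed to vary like the other groups, the list median was -0.04 for cytokines (all libraries -0.79), -0.47 for neutrophil genes (-2.30), -0.44 for chemokines (-1.20), -0.29 for antimicrobial proteins (-1.47) and 0.19 for the cell cycle (-0.60). In the same libraries it was -0.41 for macrophage genes (-0.47), -0.47 for interferon-stimulated genes (-0.49), -0.69 for goblet and conjunctiva genes (-0.39) and -0.35 for vessel genes (-0.28). For proteases and inhibitors it was -0.24 (-0.72). Single genes of 1 group differed. S100a8 was -0.21 in these libraries, Cxcl5 -0.64 and Nlrp3 -0.80, whereas Ccl12 was -1.51. Among proteases Mmp13 was -1.997, Mmp3 -0.72 and Mmp9 -0.49, and the inhibitor Timp1 was -0.26. Of the mucins Muc5ac was -1.28 and Muc5b -1.03. Pecam1 was -0.72, Cx3cr1 -0.71, Tgfb3 -0.59 and Tnc -1.11. No gene was called in those libraries (228 lower and 44 higher at an unadjusted p under 0.05, by edgeR; DESeq2 and voom were not run there). With the clock index as a term over all 12 libraries the medians were -0.49 for cytokines, -1.92 for neutrophil genes, -0.32 for the cell cycle and -0.55 for macrophage genes, again with 0 genes called (196 higher and 545 lower at an unadjusted p under 0.05, by edgeR). The part of clock phase in the differences was not tested, and Vehicle replicate 3 differs from the other Vehicle pools in more than the clock.

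**Figure D5:**
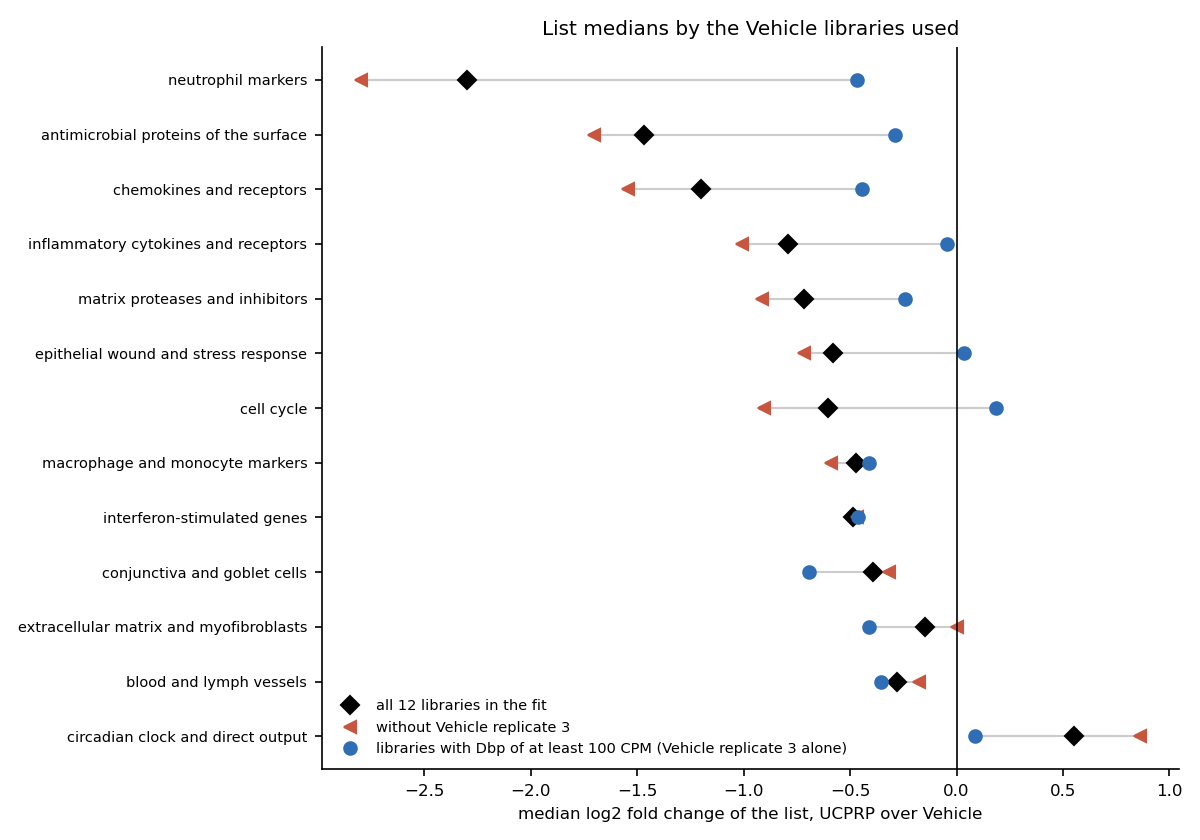
Median log2 fold change of UCPRP over Vehicle in 13 gene lists with all 12 libraries in the fit (diamonds), without Vehicle replicate 3 (triangles) and in the libraries with Dbp of at least 100 CPM (circles). The cytokine diamond stands at -0.79 and its circle at -0.04, and the macrophage diamond at -0.47 and its circle at -0.41.

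Proliferation genes had the split of the inflammatory ones. Mki67, a marker of dividing cells, measured 77.3, 44.98 and 49.97 CPM in UCPRP, against 158, 126 and 52.7 CPM in Vehicle (-0.96, interval -1.85 to -0.08), and Top2a, a topoisomerase of dividing cells, 64.7, 51.8 and 49.3 CPM in UCPRP, against 152, 125 and 49.2 CPM in Vehicle (-0.98, interval -1.79 to -0.16). Vehicle replicate 3 was inside or beside the UCPRP range in both, and in the libraries with Dbp of at least 100 CPM the estimates were 0.12 and 0.17. Of 28 cell cycle genes 27 had the lower mean in UCPRP and 0 were without overlap below Vehicle, against 7.13% of all genes. Ccnd1, cyclin D1, was the exception, at 201 to 235 CPM in UCPRP and 123 to 173 CPM in Vehicle (0.52, interval 0.13 to 0.91).

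Shares of counts from neighbouring tissue overlapped between the groups, but the members of each list mostly had the same sign. All 23 tested retina genes had the higher mean in UCPRP (median 0.454), as had 13 of 16 lens genes (median 1.08). All 19 skeletal muscle genes had the lower mean (median -1.19), and 0 genes of these lists were without overlap. Retina genes averaged 1.30% ± 0.611 of counts in UCPRP and 0.990% ± 0.584 in Vehicle (SD, n = 3 each; exact two-sided permutation p = 0.6). Skeletal muscle genes took 0.0941%, 0.0662% and 0.00291% in UCPRP, against 0.0384%, 0.118% and 0.249% in Vehicle (p = 0.4 by the same exact test). The part of neighbouring tissue in the results was not tested beyond the fits that carry retina share or muscle level as a term, in which edgeR called 0 genes. At an unadjusted p under 0.05 by edgeR, 1007 genes were higher and 1020 lower with the retina term. With the muscle term these counts were 584 and 1422, against 518 and 1054 with neither term.

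Set beside Control in the same fit, Vehicle had 1545 genes called higher and 1116 lower (9.58% and 6.92%), and UCPRP had 854 higher and 817 lower. The comparisons share libraries, so the counts are given side by side and not compared by a test.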

How the data were processed

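Counts were estimated counts per gene and library, deposited by the authors and named read counts per the file headers; 64.9% of values were whole, and all were rounded for testing. HISAT and the build GRCm38 stand in the submitters' processing notes, without versions; how reads were assigned to genes, including tool, gene models and strand, is missing from the labels and notes; overlapping and near-identical genes are therefore uncertain. Per the labels' protocols, RNA came from the Qiagen RNeasy kit and libraries from the TruSeq Stranded Total RNA kit.

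Genes passing filterByExpr (minimum count 10) were scaled by TMM and fitted with edgeR 4.0.16 (robust quasi-likelihood, 1 term per group, all 12 libraries), with Benjamini-Hochberg adjustment over 16124 genes and a threshold of 0.05. Standard errors were derived from the F statistic (size of the log2 fold change over the root of F), and intervals are 95% intervals per gene. Alternatives used DESeq2 1.42.0 and limma 3.58.1 in R 4.3.3. The scripts were tested on simulated data.

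Named genes were 8 per direction without overlap and with a mean of at least 5 CPM, fixed genes (44 tested), and 1 or 2 members of each of 45 lists. The list members were that of highest mean CPM and that of smallest unadjusted p for UCPRP against Vehicle. A few items are not reported here. Members and lists were chosen with earlier results of these data known. Coordinates and promoters are from RefSeq, which matched 19644 of 19702 genes.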

Additional observations from a re-analysis of the deposited data

How the results depend on the processing

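The 18 alternatives comprised another scaling, library totals alone, DESeq2, limma-voom, no filter, a minimum count of 30, the 6 libraries alone, the replicate block, 3 added terms, 6 fits leaving out 1 library, and the libraries with Dbp of at least 100 CPM, the last chosen after seeing the data. The count of calls was 0 in each direction except with DESeq2 (5 higher, 140 lower) and without Vehicle replicate 3 (19 higher, 176 lower), so the range over libraries left out was 0 to 19 higher and 0 to 176 lower. The cause of the DESeq2 difference was not tested. The count of intervals inside 2-fold ran from 11169 to 13323. Scaling moved the median of all genes by less than 0.1. Depth limits the genes of few counts: median standard errors (log2) were 0.519 under 1 CPM and 0.139 at 10 to 100 CPM.

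The replicate numbers are not stated to pair the pools. Deviations of same-numbered UCPRP and Vehicle libraries correlated at 0.494, -0.0353 and -0.142, so the numbers were not read as pairs. A fit with the replicate block called 0 genes higher and 0 lower, with 405 higher and 945 lower at an unadjusted p under 0.05, and left 12246 intervals inside 2-fold.

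The sign of some uncalled named genes turned, and the cause was not tested. In the libraries with Dbp of at least 100 CPM the log2 fold change was Acta2 -0.0854, Ccl2 0.16, Csf3 0.12, Cxcl1 0.42, Hbb-bs 0.55, Hdc 0.58, Il1a 0.0836, Il1b 0.31, Kit -0.14, Klf4 0.0209, Krt13 -0.0894, Mcl1 0.00204, Mki67 0.12, Per1 -0.21, Plxnb2 0.061, Rtn4 -0.0228, Sdc1 0.12, Sema3a -0.033, Serpinf1 -0.45, Serping1 -0.16, Slc16a3 0.18, Sparc -0.38, Sprr1a 0.12, Timp3 -0.20, Tnf 0.51 and Top2a 0.17. With the clock index as a term the log2 fold change was Acta2 -0.0573, Arntl 0.12, Gpnmb -0.0208, Hbb-bs 0.079, Krt13 -0.0363, Krt5 -0.12, Per1 -0.0199, Rtn4 -0.00519, Serpinf1 -0.19, Serping1 -0.13, Sparc -0.25, Timp3 -0.00404 and Tnf 0.13. With the retina share as a term the log2 fold change was Atf3 0.0423, Dct 0.0501, Hbb-bs 0.0571, Klf4 0.0411, Sdc1 0.0337 and Tnf 0.0073. With the muscle level as a term the log2 fold change was Krt13 -0.0609, Mb 0.34 and Rtn4 -0.0254. With library totals alone the log2 fold change was Gpnmb -0.000711, Krt13 -0.0173 and Serping1 -0.0238. With DESeq2 size factors the log2 fold change was Krt13 -0.00452 and Serping1 -0.00758. With DESeq2 the log2 fold change was Krt13 -0.00496 and Serping1 -0.00795. With limma-voom the log2 fold change was Serping1 -7.03e-06 and Slurp1 -1.27. With the 6 libraries alone the log2 fold change was Krt13 -0.00416 and Serping1 -0.00739. With the replicate block the log2 fold change was Krt13 -0.00979 and Serping1 -0.00327. Leaving out 1 library at a time gave ranges of Atf3 -0.53 to 0.23, Bfsp2 -0.0738 to 1.54, Cd74 -0.17 to 0.0176, Cd79b -0.44 to 0.18, Cryaa -0.83 to 5.63, Dct -0.32 to 0.0509, Gap43 -0.29 to 0.0427, Gpnmb -0.15 to 0.20, Hbb-bs -0.37 to 0.15, Klf4 -0.12 to 0.0665, Krt12 -1.31 to 3.00, Krt13 -0.15 to 0.13, Met -0.26 to 0.081, Piezo1 -0.26 to 0.0673, Plxnb2 -0.24 to 0.033, Rtn4 -0.0216 to 0.14, Sdc1 -0.12 to 0.0565, Sema3a -0.0391 to 0.20, Serpinf1 -0.0166 to 0.70, Serping1 -0.14 to 0.12, Slurp1 -4.25 to 2.39, Sparc -0.0568 to 0.43, Timp3 -0.14 to 0.16 and Tnf -0.45 to 0.14.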

Other observations

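Gene lists outside the main themes were described in the same way, with 0 genes called in each by edgeR with all libraries and by limma-voom. Counts at an unadjusted p under 0.05 are those given here. DESeq2 called 1 cell death gene and 1 Toll-like receptor gene lower (0.73% of all genes it fitted). Without Vehicle replicate 3 edgeR called 2 NRF2 genes and 1 Toll-like receptor gene lower (1.08% of all genes). Of 20 tested cholesterol synthesis genes 19 had the lower mean in UCPRP, 6 of them at an unadjusted p under 0.05 (6.54% of all genes tested) and 5 without overlap (7.13% of all genes), with a median log2 fold change of -0.27. All 20 intervals lay inside 2-fold. The list median was -0.03 in the libraries with Dbp of at least 100 CPM.

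Of 21 tested genes of caspases, gasdermins and necroptosis 17 had the lower mean, 8 at an unadjusted p under 0.05 (6.54% of all genes). Gsdma, a gasdermin of skin and other stratified epithelium in mice, measured 1.87, 2.41 and 1.44 CPM in UCPRP, against 7.79, 4.93 and 4.08 CPM in Vehicle and 0.570 to 1.19 CPM in Control (-1.55, interval -2.38 to -0.72, adjusted p = 0.331 by edgeR). Hmox1, the heme oxygenase induced by oxidative stress, measured 27.5, 26.1 and 25.6 CPM in UCPRP, against 53.1, 49.2 and 31.5 CPM in Vehicle (-0.76, interval -1.20 to -0.31), although the 20 tested NRF2 genes divided evenly, 10 higher and 10 lower, with a median of -0.02. Gsdma and Hmox1 did not overlap between the groups, which their choice as the smallest p of their lists favours. Of 20 Toll-like receptor genes 19 had the lower mean, with a median of -0.31, and of 14 T and NK cell genes 13, with a median of -0.24 and 0 at an unadjusted p under 0.05. Glycolysis genes had 16 of 18 intervals inside 2-fold (76.2% of all genes, and 92% of those over 100 CPM) and a median of -0.02.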
